A study of Rattus norvegicus with 12 samples.

Results

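Pdk4 encodes pyruvate dehydrogenase kinase 4, and its transcript level was used here to sort the 12 RNA-seq libraries of a rat skeletal muscle study. All 12 libraries of the series were members, and none was left out. The libraries were chosen by rank: within each set of 6 libraries they were ordered by Pdk4 CPM (the count scaled to a common library total) taken over the library's whole column. The upper 3 of each set are called high-Pdk4 libraries (8, 9 and 12 in set 1, 28, 29 and 32 in set 2), and the lower 3 are called low-Pdk4 libraries (3, 13 and 15 in set 1, 23, 33 and 35 in set 2). The groups thus rest on a measured value of these same libraries and not on a treatment. Pdk4 was given no test, and a gene that passed a test is one whose counts followed the Pdk4 ranking.

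The rats were 540 days old, and the labels gave 6 control libraries and 6 libraries of maternal protein restriction. Per the series description the animals were male, the restricted dams received a diet with 6% protein through gestation and lactation, and soleus and extensor digitorum longus were the muscles studied. The labels tied no muscle to a library, so title numbers under 20 are called set 1 and those over 20 set 2. Strain, composition of the control diet, feeding state, hour of sampling, dam and litter are given by none of the sources read for this work. Controls were 3, 8, 9, 23, 28 and 29, and restriction libraries were 12, 13, 15, 32, 33 and 35. Both diets stood in both groups, with 4 control and 2 restriction libraries at high Pdk4 and 2 control and 4 restriction libraries at low Pdk4. The same title numbers, apart from an offset of 20, ranked high in both sets. The labels do not say whether such a pair came from 1 animal, and if it did, the 12 libraries are not independent and the p-values below are too small.

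Pyruvate dehydrogenase turns pyruvate into acetyl-CoA inside mitochondria and so admits carbohydrate to oxidation. PDK4 phosphorylates the enzyme and switches it off, and in muscle the kinase rises in fasting, on high-fat feeding and under glucocorticoids, when fatty acids replace glucose as fuel. FoxO transcription factors, PPAR receptors and the glucocorticoid receptor are known to drive its gene, and insulin lowers it. Genes known to rise with it in fasted muscle serve fatty acid uptake and oxidation, lipid droplet turnover and protein breakdown.

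In set 1 Pdk4 measured 168, 375.9 and 85.5 CPM of the total in high-Pdk4 libraries 8, 9 and 12, and 45.5, 31.2 and 79.8 in low-Pdk4 libraries 3, 13 and 15. The border in set 1 was narrow, with restriction 12 at 85.5 just inside the upper group and restriction 15 at 79.8 just outside it. In set 2 the values were 629.8, 939.9 and 708 CPM in libraries 28, 29 and 32, and 4.94, 55.0 and 316 CPM in libraries 23, 33 and 35. There the border lay between control 28 and restriction 35. These values made the groups and are a description.

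**Figure D1:**
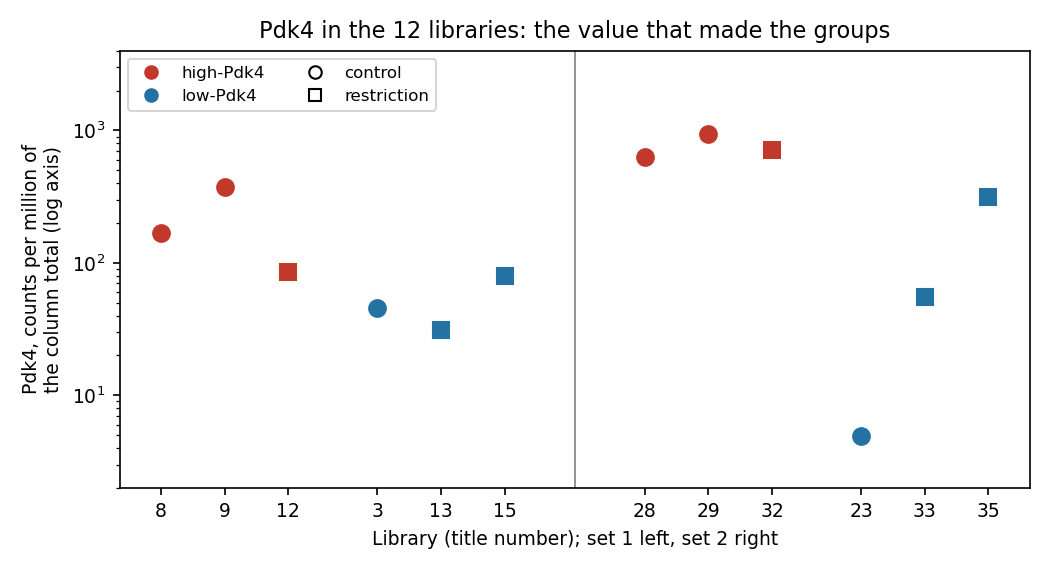
Pdk4 in CPM of the total count (log axis) for each of the 12 libraries, by title number, with set 1 left and set 2 right of the grey line. Colour gives the group, round points are control and square points restriction libraries, and in set 1 library 12 at 85.5 CPM lies close to library 15 at 79.8 CPM.

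Over both sets, 275 of 14224 genes (1.93%) differed between high-Pdk4 and low-Pdk4 libraries at an edgeR adjusted p under 0.05, of which 166 were higher (1.17%) and 109 lower (0.766%) at high Pdk4. At least a 2-fold difference was reached by 80 of the 275. Without adjustment, 2162 genes (15.2%) had a p under 0.05. Scaling bore on the balance of directions. With TMM 60.4% of the called genes were higher, and with library size alone 42.4% of 191 were. The TMM factors themselves differed by group in set 1, from 0.968 to 1.02 at high Pdk4 and from 1.08 to 1.10 at low Pdk4. Leaving out single libraries gave between 117 called genes (without control 9) and 400 (without restriction 12). It gave 125 without control 29, 136 without restriction 13, 144 without control 28, 171 without control 8 and 176 without restriction 15. Leaving out both libraries of a number gave 45 (without 9 and 29) to 343 (without 12 and 32), with 70 without 8 and 28 and 78 without 13 and 33. Of the 61 called genes among those named here, 38 kept their call in each fit leaving out 1 library and 19 in each fit leaving out both libraries of a number.

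Diet did not divide evenly between the groups, so it was also fitted as a term. With it 180 genes (1.27%) were called, 160 of them among the 275. The diet term of that fit called 0 genes (0%) in edgeR, with 943 at an unadjusted p under 0.05. Each called gene had the same sign of difference in both sets and in both diets, though the calls were made on those same libraries. Control libraries alone called 232 genes, 99 of them among the 275. Restriction libraries alone called 0 in edgeR, with 1243 at an unadjusted p under 0.05. Counts summed over the 2 libraries of a number, 3 sums against 3, called 82 genes, 69 of them among the 275.

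Among the named genes with small adjusted p were Cdkn1a, Fkbp5 and Plin5, which were higher, and Ptpn3, Nrep and Adamts8, which were lower. Values below are TMM-scaled CPM, which are not divided by transcript length and so compare libraries and not genes. They are listed in the order 8, 9, 12 against 3, 13, 15 in set 1 and 28, 29, 32 against 23, 33, 35 in set 2, high-Pdk4 libraries first. Log2 differences are high minus low with set as a term, over 6 libraries against 6.

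Cdkn1a measured 417, 288 and 204 CPM against 73.5, 62.8 and 78.9 CPM in set 1, and 355, 266 and 206 CPM against 27.1, 24.1 and 40.5 CPM in set 2. Each high-Pdk4 library lay above each low-Pdk4 library of its set, and the log2 difference was 2.62 ± 0.24 (SE; edgeR adjusted p = 0.000168). Cdkn1a encodes a cyclin-dependent kinase inhibitor that FoxO factors and glucocorticoids are known to induce. Fkbp5 measured 89, 96.8 and 76.8 CPM against 17.7, 19.3 and 37.3 CPM in set 1, and 236, 279.8 and 257 CPM against 35.2, 60.4 and 69 CPM in set 2. Fkbp5, a co-chaperone of the glucocorticoid receptor and a classical glucocorticoid-induced gene, also showed no overlap in either set, with a log2 difference of 2.03 ± 0.20 (SE; edgeR adjusted p = 0.000168). Plin5 measured 174, 235 and 154 CPM against 31.7, 36 and 31.9 CPM in set 1, and 114, 125 and 77.2 CPM against 36.7, 39 and 52.2 CPM in set 2. Plin5 coats lipid droplets in oxidative tissue and links them to mitochondria. The groups did not overlap in either set, and the log2 difference was 1.90 ± 0.22 (SE; edgeR adjusted p = 0.000485).

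On the lower side, Ptpn3 measured 90.1, 84.4 and 105 CPM against 221, 188 and 176 CPM in set 1, and 50.8, 51.5 and 49 CPM against 174, 248 and 188 CPM in set 2. The 3 high-Pdk4 libraries of set 2 lay within 49.0 to 51.5 CPM, well under the lowest low-Pdk4 library, and the log2 difference was -1.54 ± 0.17 (SE; edgeR adjusted p = 0.000318). Ptpn3 encodes a protein tyrosine phosphatase of the cytoskeleton. Nrep measured 8.05, 4.15 and 14.6 CPM against 44.9, 44.9 and 43.8 CPM in set 1, and 7.16, 10.6 and 8.19 CPM against 60.6, 41.8 and 19 CPM in set 2. Nrep, a small protein first described in regenerating neurons, differed by -2.27 ± 0.28 (SE; edgeR adjusted p = 0.00106) on the log2 scale, and library 35 was the closest of the low-Pdk4 libraries to the other group. Adamts8 measured 0.443, 0.397 and 0.397 CPM against 1.55, 3.88 and 1.26 CPM in set 1, and 1.86, 1.2 and 0.705 CPM against 10.2, 18.8 and 34.8 CPM in set 2. Adamts8 encodes a secreted metalloprotease. Its groups did not overlap in either set, with a log2 difference of -3.40 ± 0.44 (SE; edgeR adjusted p = 0.00121), and set 1 rests on few reads. All 6 genes of this group kept their calls in each fit that left out 1 library and in each fit that left out both libraries of a number.

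Within each diet these genes pointed the same way. Cdkn1a differed by 2.84 ± 0.33 among control libraries and 2.14 ± 0.27 among restriction libraries. For Fkbp5 the values were 2.62 ± 0.20 among control libraries and 1.73 ± 0.23 among restriction libraries. Plin5 showed 2.17 ± 0.26 among control libraries and 1.53 ± 0.27 among restriction libraries. Ptpn3 showed -1.56 ± 0.16 among control libraries and -1.41 ± 0.28 among restriction libraries. Control libraries entered as 4 high against 2 low and restriction libraries as 2 high against 4 low, with set as a term. The intervals of both diets came from the same libraries as the call, and the difference between diets was not tested.

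The plot of genes by library shows the separation for these and for Ucp3, Mlycd and Hk2.

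**Figure D2:**
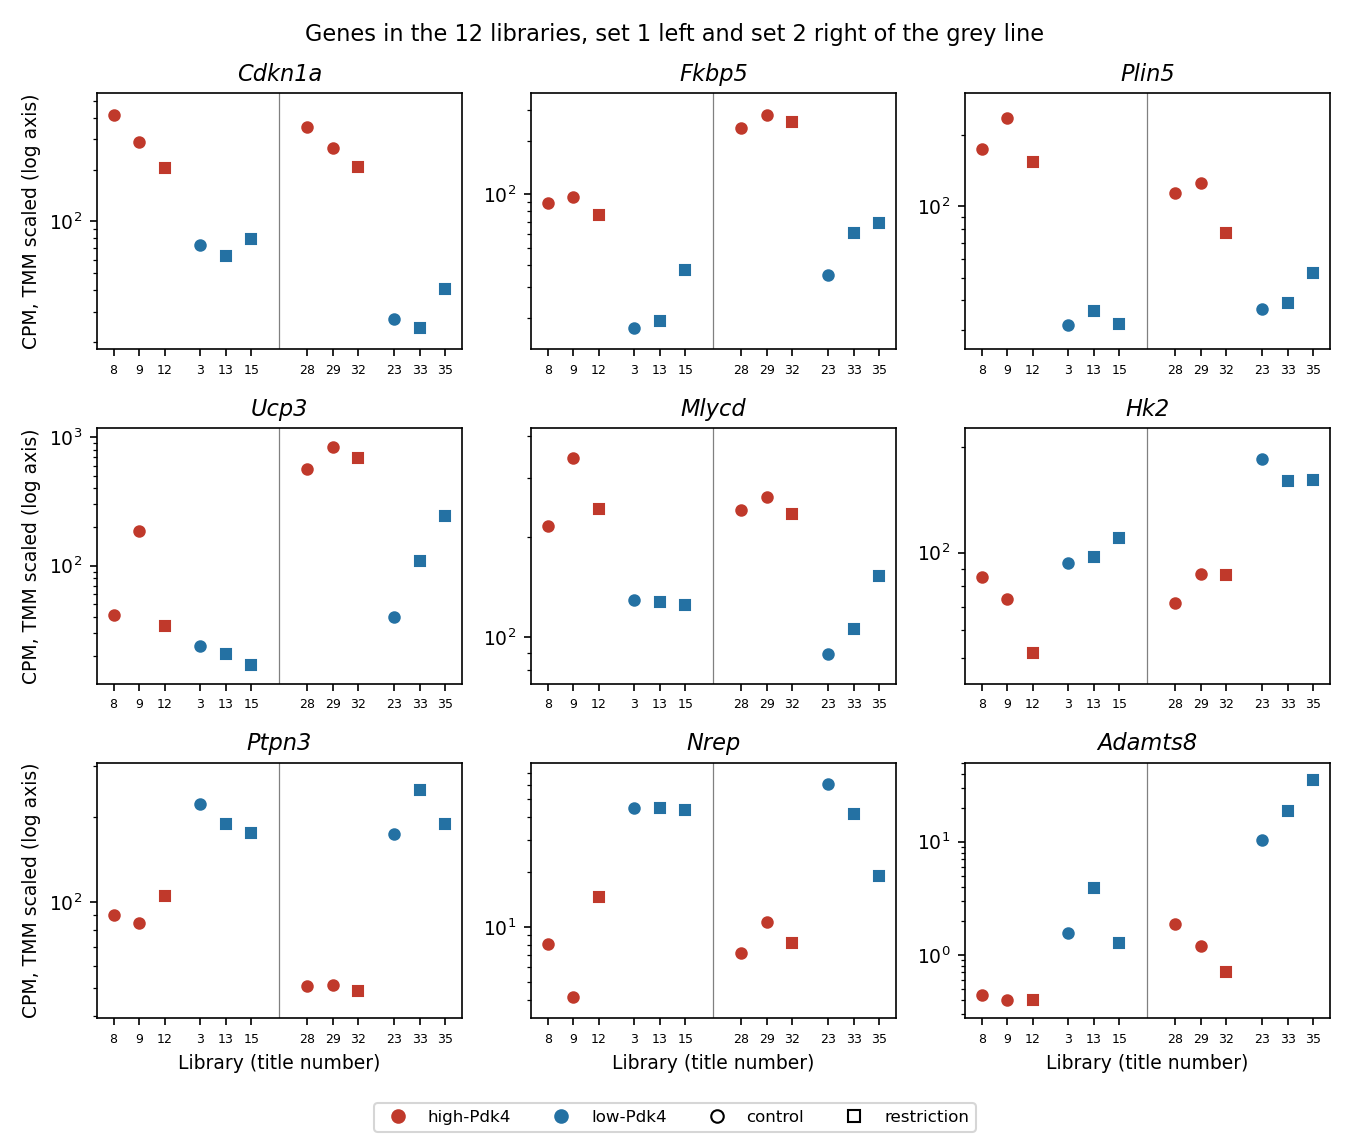
TMM-scaled CPM (log axis) of 9 genes in the 12 libraries, by title number, with set 1 left and set 2 right of the grey line in each panel. Colour gives the group and shape the diet, and in each panel the 3 high-Pdk4 libraries of a set lie on 1 side of the 3 low-Pdk4 libraries, the nearest being Hk2 in set 1 (85.3 CPM in library 8, 93.1 CPM in library 3).

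Promoters are shown for Pdk4, the sorting gene, for Cdkn1a and Fkbp5, which shared the smallest adjusted p of the named genes, and for Mlf1, the only called gene among those named whose promoter held the FoxO core. Each runs 5′ to 3′ from 250 bases before to 50 after the annotated start, from RefSeq on GRCr8, which is not the build of the counts. Capitals mark the FoxO core TGTTTAC. The positions are chr4:34568280-34568579, minus strand for Pdk4, chr20:7150682-7150981, plus strand for Cdkn1a, chr20:6543506-6543805, minus strand for Fkbp5 and chr2:153958341-153958640, plus strand for Mlf1.
Pdk4: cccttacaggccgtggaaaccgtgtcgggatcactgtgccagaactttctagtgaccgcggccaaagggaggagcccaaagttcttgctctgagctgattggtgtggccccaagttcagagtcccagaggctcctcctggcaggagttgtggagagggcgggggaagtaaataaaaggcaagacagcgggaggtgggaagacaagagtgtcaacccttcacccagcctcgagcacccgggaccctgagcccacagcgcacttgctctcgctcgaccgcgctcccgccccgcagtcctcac
Cdkn1a: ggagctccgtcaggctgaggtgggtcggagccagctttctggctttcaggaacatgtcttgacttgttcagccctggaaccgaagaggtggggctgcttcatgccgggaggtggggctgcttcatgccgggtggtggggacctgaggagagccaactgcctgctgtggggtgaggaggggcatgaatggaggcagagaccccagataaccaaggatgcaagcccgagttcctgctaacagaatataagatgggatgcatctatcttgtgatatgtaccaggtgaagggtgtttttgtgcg
Fkbp5: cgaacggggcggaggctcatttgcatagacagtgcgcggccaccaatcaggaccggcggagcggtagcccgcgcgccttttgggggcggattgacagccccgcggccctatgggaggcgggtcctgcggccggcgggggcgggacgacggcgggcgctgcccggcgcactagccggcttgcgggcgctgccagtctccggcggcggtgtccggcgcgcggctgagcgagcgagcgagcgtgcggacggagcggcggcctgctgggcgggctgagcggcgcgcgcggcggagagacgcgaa
Mlf1: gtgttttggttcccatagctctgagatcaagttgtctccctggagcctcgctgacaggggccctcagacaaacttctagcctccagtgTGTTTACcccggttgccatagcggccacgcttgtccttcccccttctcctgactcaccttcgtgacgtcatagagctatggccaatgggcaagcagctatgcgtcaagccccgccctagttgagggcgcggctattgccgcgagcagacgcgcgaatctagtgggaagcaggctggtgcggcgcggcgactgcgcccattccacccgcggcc

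These windows were searched on both strands for the FoxO core TGTTTAC, the E-box CACGTG, the D-box TTATGNAA, a full palindromic glucocorticoid receptor element and a direct-repeat PPAR element. The FoxO core stood in 1 of 143 promoters of genes called higher (0.699%), in 3 of 102 of genes called lower (2.94%) and in 3.78% of 33469 rat promoters. The E-box stood in 11.2% of the promoters of genes called higher, 6.86% of those called lower and 6.42% of all. The D-box stood in 2.10%, 0.980% and 3.66%. The glucocorticoid receptor and PPAR elements, searched as 1 strict spelling each, stood in 0 promoters of called genes and in 0.0149% and 0.0538% of all. Of 71 named genes with Pdk4, 55 matched the promoter table, and none of their windows held more than 1 of these motifs. A match of letters is a description and not a binding site.

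The label of a fasting-like state was checked against 13 markers of fasted muscle. At high Pdk4, 3 were higher (Ucp3, Fkbp5 and Foxo1), 1 was lower (Hk2) and 9 did not pass. The data thus bear out the label only in part, and the groups are named here by the Pdk4 rank.

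Ucp3, an uncoupling protein of muscle mitochondria that rises with fatty acid supply, came first by size among the markers. Ucp3 measured 41.7, 187 and 34.1 CPM against 23.7, 20.4 and 16.9 CPM in set 1, and 568, 841 and 686 CPM against 39.6, 109.5 and 242 CPM in set 2. Control 9 alone stood far above the rest of set 1, yet libraries 8 and 12 also exceeded each low-Pdk4 library there. The log2 difference was 2.26 ± 0.42 (SE; edgeR adjusted p = 0.0125). Foxo1 measured 5.91, 4.55 and 3.45 CPM against 2.05, 1.04 and 1.79 CPM in set 1, and 21.6, 29.8 and 25.5 CPM against 2.2, 8.23 and 16.3 CPM in set 2. Foxo1, the transcription factor that insulin signalling keeps out of the nucleus, differed by 1.51 ± 0.33 (SE; edgeR adjusted p = 0.0286) on the log2 scale. Its call was lost without library 8, 9, 13, 15, 28, 29, 32 or 33, and with the diet term (edgeR adjusted p = 0.0575). Hk2 measured 85.3, 73.4 and 51.6 CPM against 93.1, 97.1 and 109.7 CPM in set 1, and 71.8, 87 and 86.5 CPM against 185, 161 and 161 CPM in set 2. Hk2, the insulin-responsive hexokinase that traps glucose in muscle, was lower without overlap in either set, at -0.78 ± 0.14 (SE; edgeR adjusted p = 0.0092) on the log2 scale.

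Several textbook members of the fasting response did not pass. Angptl4 measured 23.4, 109.5 and 12.8 CPM against 9.78, 10.9 and 11.5 CPM in set 1, and 60.3, 74.5 and 36.8 CPM against 1.5, 5.69 and 33.5 CPM in set 2. Angptl4, a secreted inhibitor of lipoprotein lipase, differed by 2.12 ± 0.57 (SE; edgeR adjusted p = 0.0738), a large but uneven difference in which restriction 35 at 33.5 CPM came near restriction 32 at 36.8. It passed without library 12 (edgeR adjusted p = 0.0364) or 35 (edgeR adjusted p = 0.0158), with DESeq2 (adjusted p = 0.0434), unfiltered, in controls alone and with Pdk4 as a number. Fbxo32 measured 12.2, 12.9 and 15.5 CPM against 13.7, 8.79 and 16.2 CPM in set 1, and 195, 134 and 194 CPM against 10.4, 85.3 and 122 CPM in set 2. Fbxo32, the atrophy ubiquitin ligase atrogin-1, overlapped in set 1, and library 23 at 10.4 CPM was far below the others of set 2. Its log2 difference was 0.68 ± 0.40 (SE; edgeR adjusted p = 0.454). Trim63 measured 323, 256 and 303 CPM against 179.9, 202 and 507 CPM in set 1, and 512, 571 and 443 CPM against 227, 192 and 621 CPM in set 2. Trim63, the ligase MuRF1, was highest in the low-Pdk4 library 15 in set 1 and in the low-Pdk4 library 35 in set 2, with a log2 difference of 0.27 ± 0.29 (SE; edgeR adjusted p = 0.724). Irs2, an insulin receptor substrate, was at 0.15 ± 0.39, with the low-Pdk4 library 15 at 139.9 CPM above each other library of set 1. The remaining markers that did not pass were Cpt1a at 0.55 ± 0.19, Klf15 at 0.35 ± 0.19, Slc2a4 at 0.16 ± 0.14, Pdk2 at -0.20 ± 0.12 and Srebf1 at -0.73 ± 0.21. Their edgeR adjusted p ran from 0.0958 (Srebf1) to 0.902 (Irs2) when Angptl4 is set aside. Srebf1 passed with the diet term (edgeR adjusted p = 0.0434), with DESeq2 (adjusted p = 0.0196), unfiltered, in controls alone and with Pdk4 as a number.

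**Figure D3:**
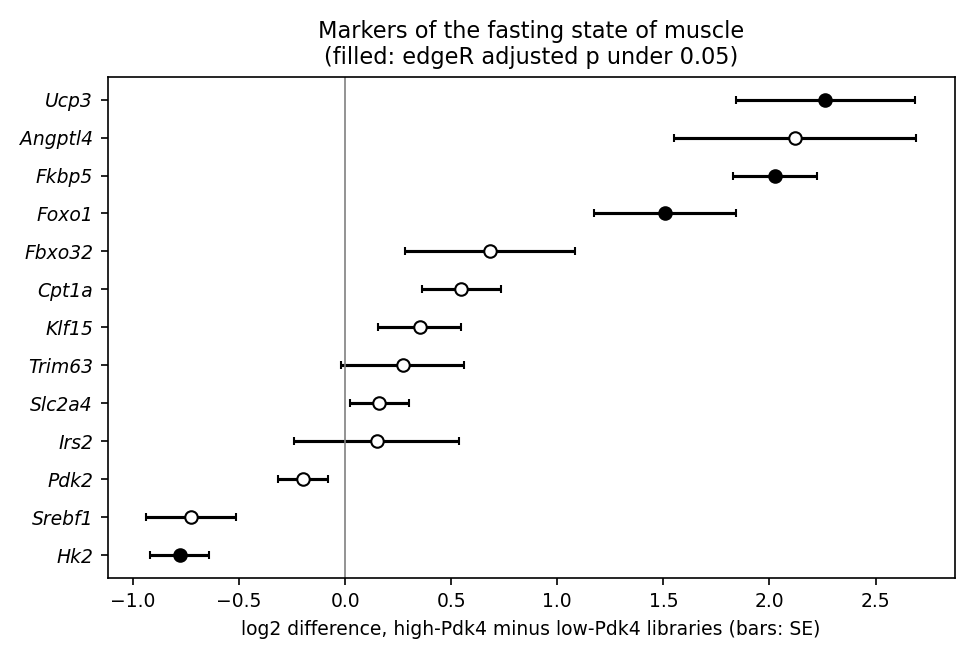
Log2 difference of high-Pdk4 minus low-Pdk4 libraries with its SE for the 13 fasting markers, 6 libraries against 6 with set as a term. Filled points had an edgeR adjusted p under 0.05, and they are Ucp3, Fkbp5 and Foxo1 to the right of 0 and Hk2 to the left.

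Gene lists are described next by how many members were called, to be read against 1.17% of all genes called higher and 0.766% lower, and by their median log2 difference, which over all genes was -0.01. Members of the PPAR and fatty acid list were called higher in 6 and lower in 2 of 33, with a median of 0.30. Besides Plin5 and Ucp3, the members called higher were Mlycd, Acot2, Ucp2 and Fabp3. Mlycd measured 216, 344 and 243 CPM against 129.6, 127 and 125 CPM in set 1, and 240.1, 264 and 234 CPM against 89.4, 106 and 153 CPM in set 2. Mlycd breaks down malonyl-CoA, the inhibitor of fatty acid entry into mitochondria, and differed by 1.08 ± 0.14 (SE; edgeR adjusted p = 0.00121) on the log2 scale without overlap in either set. Acot2 measured 97.4, 154 and 114 CPM against 56.4, 62.4 and 66.8 CPM in set 1, and 136, 162 and 99 CPM against 42, 42.6 and 63.2 CPM in set 2. Acot2, a mitochondrial acyl-CoA thioesterase, differed by 1.20 ± 0.16 (SE; edgeR adjusted p = 0.00125). Fabp3, the muscle fatty acid binding protein, was at 0.83 ± 0.18 and Ucp2 at 0.65 ± 0.16. The 2 lower members were Ppara, the nuclear receptor itself, at -0.75 ± 0.14 (SE; edgeR adjusted p = 0.0152), and Vldlr, a lipoprotein receptor, at -0.57 ± 0.12 (SE; edgeR adjusted p = 0.0229). Ucp2, Fabp3, Ppara and Vldlr fall outside the rule for named genes and were named after their values were seen. Their calls were lost without library 3, 9, 12, 13, 15, 28, 29, 33 or 35 for Ucp2, 3, 8, 9, 13, 15, 28 or 29 for Fabp3, 3, 8, 9, 28, 29, 32 or 33 for Vldlr and 29 for Ppara. With the diet term 4 members were called higher and 2 lower, and Ucp2 and Fabp3 did not pass (edgeR adjusted p = 0.104 and 0.0962).

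Several genes of triglyceride storage and release were called on different lists. They are put side by side here after their values were seen and form no tested group. Pnpla2 and Lipe, which release fatty acids from triglyceride, and Dgat2 and Gpam, which build it, were called higher. Of the lipid droplet proteins beside Plin5, Plin1 was at -0.91 ± 0.26 and Plin2 at 0.08 ± 0.11, and neither passed. Pnpla2 measured 53.9, 65.5 and 48.5 CPM against 25.6, 15.1 and 21.3 CPM in set 1, and 32.7, 28.1 and 28.6 CPM against 20.5, 12.1 and 19.8 CPM in set 2. This triglyceride lipase differed by 1.11 ± 0.18 (SE; edgeR adjusted p = 0.00448) on the log2 scale. Lipe, hormone-sensitive lipase, differed by 0.82 ± 0.19 (SE; edgeR adjusted p = 0.0317), a call lost without library 3, 8, 9, 13, 15, 28, 29 or 33 and with the diet term (edgeR adjusted p = 0.0617). Dgat2 measured 52.6, 78.5 and 96.8 CPM against 28.5, 33.2 and 36.4 CPM in set 1, and 132, 139 and 74.6 CPM against 41.8, 41.4 and 66.1 CPM in set 2. Dgat2 performs the last step of triglyceride synthesis and differed by 1.21 ± 0.18 (SE; edgeR adjusted p = 0.00325). Gpam performs the first step and differed by 1.09 ± 0.17 (SE; edgeR adjusted p = 0.00392). Gpihbp1, which holds lipoprotein lipase on the capillary wall, differed by 1.63 ± 0.23 (SE; edgeR adjusted p = 0.00204), and Aqp7, a glycerol channel, by 1.39 ± 0.23 (SE; edgeR adjusted p = 0.00632). Of 15 lipid synthesis genes 2 were higher (Dgat2 and Gpam) and 2 lower, with a median of -0.06. Fasn measured 3.32, 4.92 and 5.24 CPM against 20.1, 10.9 and 9.36 CPM in set 1, and 3.23, 3.5 and 4.13 CPM against 5.26, 6.17 and 4.17 CPM in set 2. Fasn, fatty acid synthase, was lower, at -1.06 ± 0.25 (SE; edgeR adjusted p = 0.0412), a call lost without library 3, 8, 9, 12, 13, 15, 28, 29 or 33 and with the diet term (edgeR adjusted p = 0.0575). Scd2, a desaturase, was lower, at -1.01 ± 0.17 (SE; edgeR adjusted p = 0.00779).

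The adipocyte list, markers of a cell type that muscle samples can hold, had 1 of 11 members called (Lipe). Its summed level ran from 336 to 470.4 CPM at high and 338 to 513 CPM at low Pdk4 in set 1, and from 261 to 362 against 181 to 238 CPM in set 2. In bulk samples fewer cells of a type and less RNA per cell cannot be told apart. The part of adipocyte transcripts in the lipid genes above was not tested.

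Glucocorticoid-induced genes were called higher in 3 of 20 (Fkbp5, Cdkn1a and Zbtb16), with a median of 0.58. Zbtb16 measured 430.5, 447 and 376 CPM against 174, 132 and 256 CPM in set 1, and 323, 438 and 278 CPM against 162, 106 and 250.4 CPM in set 2. Zbtb16, a zinc finger repressor, differed by 1.08 ± 0.20 (SE; edgeR adjusted p = 0.0115) on the log2 scale, with restriction 35 at 250.4 CPM near restriction 32 at 278. Other members on this list did not pass, among them Tsc22d3 at 0.42 ± 0.18, Per1 at 1.00 ± 0.41 and Ddit4 at 0.79 ± 0.37, values given because these are classical glucocorticoid targets. Nr3c1, the receptor gene, was at -0.28 ± 0.09. Zinc-binding metallothioneins and related genes were called in 0 of 9.

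The fasting and FoxO list had 8 of 24 members called higher and 0 lower, with a median of 0.47. Besides Cdkn1a, Foxo1 and Pnpla2 these were Lpin1, Ctsl, Txnip, Map1lc3b and Gabarapl1. Lpin1 measured 75.1, 91.7 and 74.9 CPM against 48.3, 60.4 and 52.4 CPM in set 1, and 286, 327 and 247 CPM against 153, 187 and 184 CPM in set 2. Lpin1, a phosphatidate phosphatase and nuclear coactivator, differed by 0.65 ± 0.11 (SE; edgeR adjusted p = 0.00688). Ctsl measured 107, 88.1 and 117 CPM against 66.9, 58.5 and 70.03 CPM in set 1, and 206, 154 and 194 CPM against 57.3, 62 and 119 CPM in set 2. Ctsl, the lysosomal protease cathepsin L, differed by 0.95 ± 0.18 (SE; edgeR adjusted p = 0.0128). Txnip, which restrains glucose uptake and was named after its value was seen, was at 0.70 ± 0.16 (SE; edgeR adjusted p = 0.0308) and lost its call without library 9, 13, 15, 28, 29 or 33 and with the diet term (edgeR adjusted p = 0.0777). Autophagy and lysosome genes were higher in 4 of 30 (median 0.11), namely Ctsl, Map1lc3b at 0.53 ± 0.12, Gabarapl1 at 0.53 ± 0.13 and Zfand5 at 0.53 ± 0.13. Map1lc3b and Gabarapl1 encode proteins of the autophagosome membrane. Several of these calls did not hold without single libraries. Gabarapl1 lost its call without library 3, 8, 9, 12, 13, 15, 23, 28, 29, 32 or 33, Map1lc3b without library 3, 9, 12, 13, 15, 28, 29, 32 or 33 and Zfand5 without library 8, 9, 13, 15, 28, 29, 32 or 33. With the diet term Gabarapl1 and Zfand5 did not pass (edgeR adjusted p = 0.0765 and 0.101).

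Proteasome subunits were called higher in 5 of 35 and lower in 0, with 31 of 35 above 0 (47.8% of all genes were) and a median of 0.19. Psmd8 measured 133, 133 and 128 CPM against 86.8, 91.9 and 75.2 CPM in set 1, and 143, 135 and 127 CPM against 91.7, 73.6 and 74.4 CPM in set 2. Psmd8, a subunit of the regulatory cap, had a log2 difference of 0.70 ± 0.10 (SE; edgeR adjusted p = 0.00158) and kept its call in each fit leaving out 1 library. The other 4 differed by less: Psmc4 by 0.47 ± 0.09, Psmd3 by 0.47 ± 0.10, Psmd12 by 0.45 ± 0.10 and Psmc1 by 0.40 ± 0.10. Psmc4 lost its call without library 9, 15 or 29. The call of Psmd3 was lost without library 9, 13, 15, 28, 29, 32 or 33, that of Psmd12 without library 3, 9, 13, 15, 28, 29 or 33 and that of Psmc1 without library 3, 8, 9, 13, 15, 28, 29, 32, 33 or 35. With the diet term Psmd12 and Psmc1 did not pass (edgeR adjusted p = 0.0698 and 0.111).

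Amino acid response genes were higher in 2 of 25 (median 0.25). Cars, a cysteine tRNA synthetase, differed by 0.61 ± 0.12 (SE; edgeR adjusted p = 0.0142) on the log2 scale. Sesn2, a stress-induced inhibitor of growth signalling, differed by 0.90 ± 0.20 (SE; edgeR adjusted p = 0.0291), a call lost without library 3, 8, 9, 13, 15, 28 or 29 and with the diet term (edgeR adjusted p = 0.0801). Among 19 heat-shock genes only Hspa5, the chaperone of the endoplasmic reticulum, was called, at 0.88 ± 0.16 (SE; edgeR adjusted p = 0.00988). Hspa5 measured 218, 215 and 107 CPM against 88.1, 94.5 and 78 CPM in set 1, and 159.7, 203 and 164 CPM against 102, 119.8 and 98.3 CPM in set 2. In set 1 restriction 12 at 107 CPM lay nearer to the low-Pdk4 libraries than to 8 and 9.

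Genes of carbohydrate use are to be read against 1.93% of all genes called, a share at which lists this short can hold 0 called. The pyruvate dehydrogenase complex, its other kinases, its phosphatases and the pyruvate carrier had 0 of 13 members called, with a median of 0.05. Of these, Pdk1 was at 0.02 ± 0.11, Pdk2 at -0.20 ± 0.12 and Pdk3 at -0.60 ± 0.33. Glycolysis had 1 of 17 called, which was Hk2 (median 0.00). The citric acid cycle had 0 of 17 (median 0.01) and the respiratory chain 0 of 34 (median -0.03). Insulin and glucose uptake genes were higher in 1 (Tbc1d1) and lower in 1 (Hk2) of 20, with a median of -0.01. Tbc1d1, which holds glucose transporter vesicles inside the cell, was at 0.70 ± 0.16 (SE; edgeR adjusted p = 0.0382), and its call was lost without library 3, 8, 9, 13, 15, 28, 29, 33 or 35 and with the diet term (edgeR adjusted p = 0.0921). Slc2a4 measured 598, 566 and 589.5 CPM against 459.8, 438 and 443 CPM in set 1, and 526, 575 and 464 CPM against 723, 500.1 and 413 CPM in set 2. Slc2a4, the insulin-responsive glucose transporter, did not overlap in set 1 and was highest in the low-Pdk4 library 23 in set 2. Its log2 difference of 0.16 ± 0.14 joined opposite signs, at 0.39 ± 0.18 in set 1 and -0.06 ± 0.18 in set 2.

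**Figure D4:**
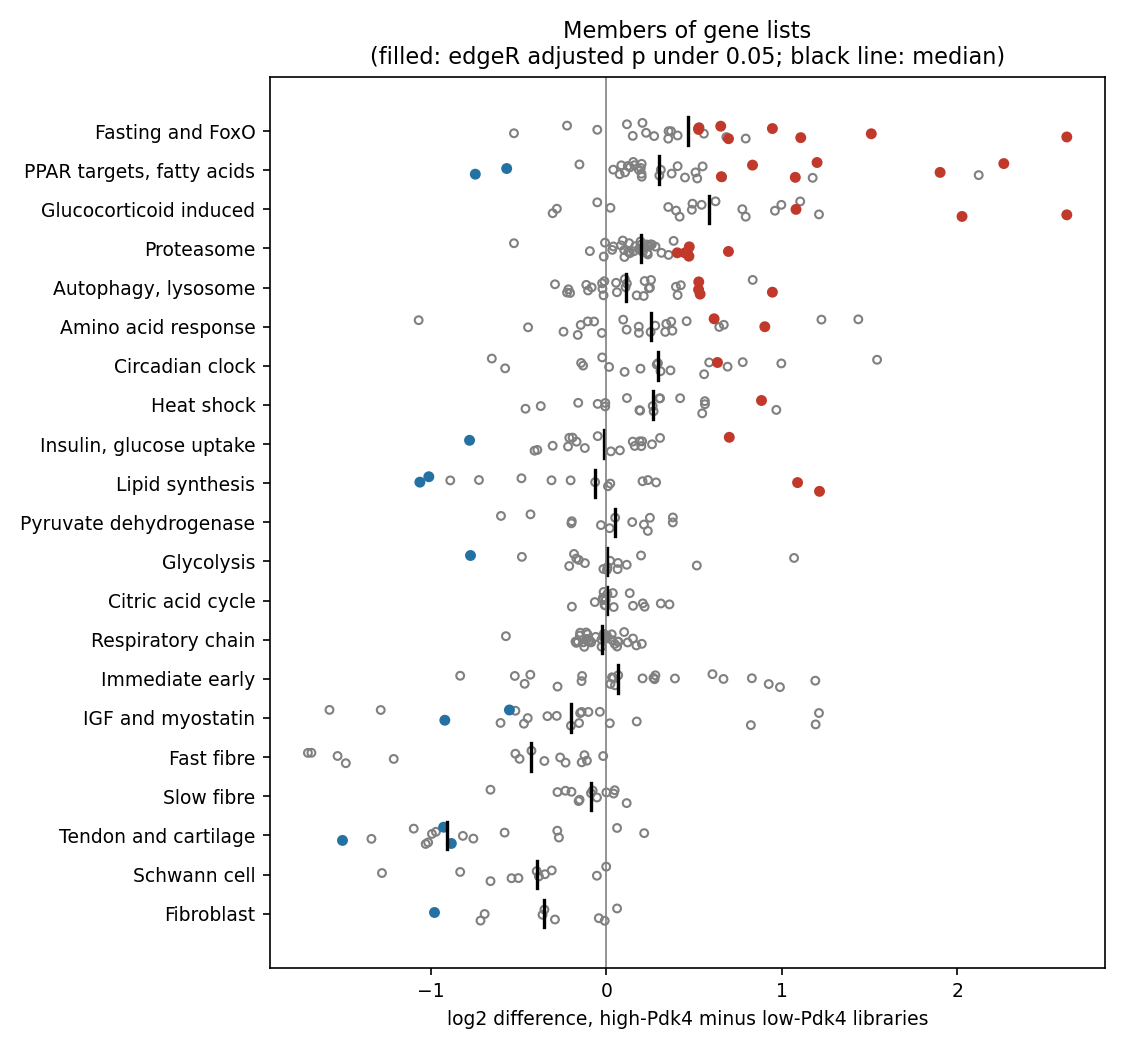
Log2 difference of high-Pdk4 minus low-Pdk4 libraries for the tested members of 21 gene lists, 1 point per gene, with the list median as a black line. Filled points had an edgeR adjusted p under 0.05 (red higher, blue lower), and the fasting, PPAR and proteasome lists hold 8, 6 and 5 red points.

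Clock genes were higher in 1 of 19, with a median of 0.29. Clock itself, the transcription factor, measured 33.8, 29.7 and 26.7 CPM against 21.9, 20 and 18.1 CPM in set 1, and 51.6, 50.8 and 46.1 CPM against 24.1, 36.3 and 32.9 CPM in set 2. Its groups did not overlap in either set, and the log2 difference was 0.63 ± 0.12 (SE; edgeR adjusted p = 0.0113). Its partner Arntl was at 0.78 ± 0.27 and Ciart at 1.54 ± 0.44, and neither passed. Per2 and Dbp were at -0.14 ± 0.24 and 0.19 ± 0.39. Npas2 at 0.69 ± 0.22 and Nr1d1 at 0.59 ± 0.20 were higher and did not pass. Per3 at -0.58 ± 0.25 and Hlf at -0.65 ± 0.17 were lower and did not pass. Without adjustment 9 of 19 clock genes had an edgeR p under 0.05, against 15.2% of all genes. A difference in hour of sampling was not tested. Immediate early genes, which respond within minutes to handling and activity, had 0 of 23 members called.

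The 28 genes with the largest differences, 13 higher and 15 lower, were taken among called genes with a mean of at least 1 CPM and no overlap in either set. No overlap in either set, in 1 direction, was seen in 282 genes higher (1.98%) and 216 lower (1.52%), 498 in all (3.50%), and in 230 of the 275 called genes. Of the 28, 22 kept their call in each fit leaving out 1 library and 12 in each fit leaving out both libraries of a number. Those not yet described on the higher side include Mybph, a myosin-binding protein, Slc2a5, the fructose transporter, and Mical2, an enzyme that oxidises actin. Mybph measured 548, 511 and 458 CPM against 155, 143 and 117 CPM in set 1, and 364, 216 and 61.3 CPM against 27.2, 40.6 and 48.5 CPM in set 2. In set 2 restriction 32 was far under controls 28 and 29 and still above the low-Pdk4 libraries, and the log2 difference was 2.16 ± 0.30 (SE; edgeR adjusted p = 0.00172). Slc2a5 measured 4.91, 6.24 and 5.95 CPM against 0.571, 1.57 and 1.1 CPM in set 1, and 10.7, 16.2 and 7.85 CPM against 4.83, 3.08 and 3.14 CPM in set 2. The log2 difference was 2.01 ± 0.27 (SE; edgeR adjusted p = 0.00122) for this transporter. Mical2 differed by 1.55 ± 0.27 (SE; edgeR adjusted p = 0.00814), Map2k3, a kinase upstream of the stress kinase p38, by 1.42 ± 0.25 (SE; edgeR adjusted p = 0.00922), and Abcb9, a lysosomal peptide transporter, by 1.38 ± 0.24 (SE; edgeR adjusted p = 0.00862). Fscn2, an actin bundler, differed by 1.49 ± 0.32 (SE; edgeR adjusted p = 0.0247) and lost its call without library 3, 9, 28, 29 or 32.

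Neu2, a cytosolic sialidase, came next to Adamts8 in size on the lower side of these 28. Neu2 measured 1.44, 0.926 and 1.23 CPM against 3.09, 4.91 and 5.37 CPM in set 1, and 0.52, 1.93 and 1.01 CPM against 15.8, 8.84 and 10.2 CPM in set 2. The groups did not overlap in either set, and the log2 difference was -2.62 ± 0.35 (SE; edgeR adjusted p = 0.00122). Mlf1, whose promoter is printed above, measured 23.2, 22 and 52.7 CPM against 57.2, 104 and 92 CPM in set 1, and 28.4, 31.9 and 45.6 CPM against 84, 93.1 and 103 CPM in set 2. Restriction 12 at 52.7 CPM came close to control 3 at 57.2, and the log2 difference was -1.39 ± 0.21 (SE; edgeR adjusted p = 0.00392). Sfrp4 measured 1.85, 1.16 and 1.55 CPM against 18.1, 11.9 and 6.35 CPM in set 1, and 0.742, 0.5 and 0.805 CPM against 1.82, 1.41 and 1.57 CPM in set 2. Sfrp4, a secreted Wnt antagonist, differed by -2.19 ± 0.36 (SE; edgeR adjusted p = 0.00622). Polr2l measured 7.24, 5.32 and 5.63 CPM against 49.8, 13.6 and 52.8 CPM in set 1, and 3.86, 3.17 and 3.79 CPM against 4.83, 5.42 and 7.12 CPM in set 2. Polr2l, a small RNA polymerase subunit, was at 49.8 and 52.8 CPM in libraries 3 and 15 and far lower elsewhere, and its difference of -1.72 ± 0.38 (SE; edgeR adjusted p = 0.0286) was lost without library 3, 8, 9, 12, 15 or 29.

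The other 8 of the lower genes included Lpar5, a receptor for lysophosphatidic acid, at -1.42 ± 0.23, Angptl2, a secreted angiopoietin-like protein, at -1.36 ± 0.22, and Col24a1, a fibrillar collagen, at -1.35 ± 0.23. Afap1l1 stood at -1.33 ± 0.23 and Slc47a1, an organic cation exporter, at -1.31 ± 0.25. These 5 kept their calls in each fit leaving out 1 library and in 3 (Slc47a1) to 5 (Angptl2 and Col24a1) of the 6 fits leaving out both libraries of a number. Clec11a stood at -1.57 ± 0.34, Kazald1 at -1.53 ± 0.32 and Tigd4 at -1.34 ± 0.31. Clec11a lost its call without library 8, 9, 13, 28, 29 or 33, Kazald1 without library 9, 13, 28 or 29 and Tigd4 without library 9, 12, 13, 15, 28, 29, 33 or 35. With the diet term Clec11a and Tigd4 did not pass (edgeR adjusted p = 0.0711 and 0.118).

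The contrast was also taken in each set on its own. Set 1 called 61 genes (0.429%) and set 2 called 136 (0.956%), with 18 in common, which is 29.5% of the set 1 calls and 13.2% of the set 2 calls. The test of the difference between sets called 0 genes (0%) in edgeR, with 946 at an unadjusted p under 0.05, 44 called by DESeq2 and 1 by limma-voom. Plin5 differed by 2.50 ± 0.22 in set 1 and 1.30 ± 0.21 in set 2. Mical2 differed by 0.74 ± 0.23 in set 1 and 2.33 ± 0.24 in set 2. For Ptpn3 the values were -1.06 ± 0.16 in set 1 and -2.01 ± 0.16 in set 2. None of these 3 passed the test of the difference between sets.

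**Figure D5:**
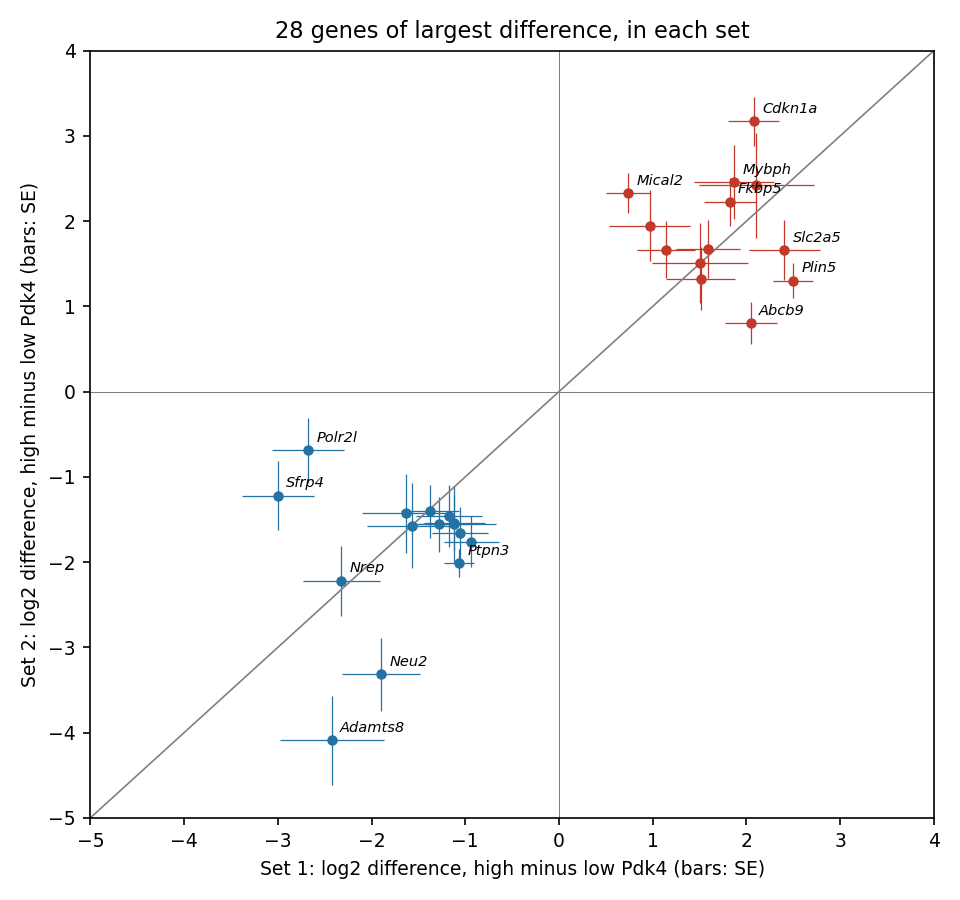
Log2 difference of high-Pdk4 minus low-Pdk4 libraries in set 1 (horizontal) and set 2 (vertical) with SE bars, 3 libraries against 3 in each, for the 28 genes of largest difference over both sets. The grey diagonal marks equal values, all 28 genes have the same sign in both sets by the way they were chosen, and Plin5 and Abcb9 lie under the line and Mical2 above it.

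Tendon and cartilage genes lay lower at high Pdk4, with 3 of 16 called lower, 14 of 16 below 0 and a median of -0.91. Scx measured 27.9, 20.6 and 35.9 CPM against 53, 53.4 and 43.5 CPM in set 1, and 12, 7.7 and 12.4 CPM against 28.5, 19.9 and 17.3 CPM in set 2. Scx, the transcription factor of tendon, did not overlap in either set and differed by -0.93 ± 0.17 (SE; edgeR adjusted p = 0.00988) on the log2 scale. Kera, a corneal and tendon proteoglycan, was at -1.50 ± 0.35 (SE; edgeR adjusted p = 0.0393) and Cilp, a cartilage matrix protein, at -0.88 ± 0.19 (SE; edgeR adjusted p = 0.0286). Kera lost its call without library 3, 8, 9, 12, 13, 15, 28, 29, 33 or 35 and Cilp without library 3, 8, 9, 13, 28, 29, 32 or 33. With the diet term the median was -0.71 and 1 member, Scx, was called. The summed level of the list ran from 430.5 to 514 CPM at high and 616 to 784 CPM at low Pdk4 in set 1, and from 337 to 524 against 362 to 723 CPM in set 2. The part of tendon carried with the muscle in these differences was not tested.

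The list of myostatin and growth factor genes had 2 of 21 members called lower and 0 higher (median -0.20), with 16 of 21 below 0. Mstn, myostatin itself, was above 0 at 1.21 ± 0.79, as was Inhbb at 1.19 ± 0.34, and neither passed. Fstl1 measured 42.5, 42 and 45 CPM against 94.9, 92.2 and 73.8 CPM in set 1, and 12.7, 11.6 and 17.1 CPM against 28.5, 20.3 and 24.8 CPM in set 2. Fstl1, a secreted follistatin-like protein, differed by -0.92 ± 0.12 (SE; edgeR adjusted p = 0.00122) without overlap in either set. Tgfb2 was at -0.55 ± 0.13 (SE; edgeR adjusted p = 0.0457) and lost its call without library 3, 8, 9, 12, 13, 15, 23, 28, 29, 32 or 33. Lum, a collagen-binding proteoglycan of fibroblasts, was the 1 called member of 9 on the fibroblast list, at -0.98 ± 0.21 (SE; edgeR adjusted p = 0.0229), and lost its call without library 3, 8, 9, 13 or 28. The fibroblast list summed to between 498.5 and 543 CPM at high and between 755 and 931 CPM at low Pdk4 in set 1. In set 2 the ranges overlapped, at 318.5 to 400.2 and 284 to 389 CPM. The part of these cells in the differences of Fstl1 and Lum was not tested.

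Markers of other cells are given next, on lists too short to tell 0 called from the 1.93% called over all genes. Macrophage genes had 0 of 12 called, red blood cell genes 0 of 6, lymphocyte genes 0 of 2 tested and Schwann cell genes 0 of 11, though all 11 Schwann cell genes were below 0 (median -0.40). The summed Schwann cell level in set 2 was 83.6 to 98.9 CPM at high and 143 to 153 CPM at low Pdk4, and in set 1 the ranges overlapped. Of 10 endothelial genes Cldn5, a junction protein, was called, at 1.09 ± 0.25 (SE; edgeR adjusted p = 0.0321). Its high value was carried by controls 8, 9, 28 and 29, while restriction 32 at 20.2 CPM lay under each low-Pdk4 library of set 2. The call was lost without library 3, 8, 9, 13, 15, 23, 28, 29, 33 or 35 and with the diet term (edgeR adjusted p = 0.165).

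No member of the lists of fast-fibre and slow-fibre contractile genes was called. All 15 fast-fibre genes were below 0 with a median of -0.43, and 0 of 15 passed. That median joined -0.62 in set 1 and -0.16 in set 2, and the summed fast-fibre ranges of the groups overlapped in both sets. The slow-fibre list had 0 of 13 called with a median of -0.09, which joined 0.21 in set 1 and -0.46 in set 2. Its summed level in set 1 was 122000 to 124300 CPM at high and 106100 to 108700 CPM at low Pdk4. In set 2 the ranges overlapped, at 11120 to 19260 and 16430 to 23410 CPM. These sums are divided by the TMM factors. In set 1 the factors were 0.968 to 1.02 at high and 1.08 to 1.10 at low Pdk4, which widens the gap there. Denervation-responsive genes were lower in 1 of 17, which was Myod1, the myogenic factor. Myod1 measured 5.54, 4.89 and 9.8 CPM against 15.9, 11.3 and 8.34 CPM in set 1, and 49.4, 44.1 and 31.1 CPM against 118, 71.9 and 69.1 CPM in set 2. It differed by -0.94 ± 0.21 (SE; edgeR adjusted p = 0.0286), overlapped in set 1, and lost its call without library 3, 8, 9, 13, 28, 29 or 32. The 8 genes that the series description names were called in 0 of 8, too short a list to set apart from 1.93% of all genes. Of these 8, 4 had an unadjusted edgeR p under 0.05, against 15.2% of all genes.

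Total counts ran from 22829692 to 38313704 per library, and the ranges of both Pdk4 groups overlapped in each set. Skeletal muscle markers were high in each library, with Acta1 from 46210 to 70760 CPM. Myh7, the slow myosin heavy chain, measured 31170 to 38340 CPM in set 1 and 702 to 2589 CPM in set 2. Summed fast-fibre genes ran from 9228 to 18680 CPM in set 1 and from 176800 to 233400 CPM in set 2. The set term and the test between sets thus compare libraries rich in slow-fibre transcripts with libraries rich in fast-fibre transcripts. Control 23, a low-Pdk4 library, stood apart on the second principal component, and without it 336 genes were called. It also had the highest summed red blood cell level (2007 CPM, at most 754 elsewhere), the highest share of mitochondrial tRNA (5.83% of counts) and the lowest TMM factor (0.815). The third component, with 7.21% of the variance, was positive in 6 of 6 high-Pdk4 libraries and negative in 5 of 6 low-Pdk4 libraries, with control 23 at 20.7 as the exception. Because Pdk4 belongs to the same libraries, that order is a description.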

How the data were processed

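RNA-seq counts of 12 rat muscle libraries were used. Per the labels' protocols, Trizol was used for extraction and a TruSeq kit, which keeps no strand, for the libraries, so antisense overlaps cannot be told apart. Trimmomatic, HISAT2, featureCounts, DESeq2 and the build Rnor_6.0 are named per the submitters' processing notes, with no version or role. The authors deposited raw counts per gene (24648 rows, 144 names on more than 1 row, kept separate). A second deposited table equals the counts over 1 constant per library and was not used.

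A gene was tested if it passed filterByExpr over the 4 set-by-group classes, which left 14225, or 14224 without Pdk4. Counts were scaled by TMM and fitted in edgeR 4.0.16 (R 4.3.3) by quasi-likelihood with terms for set and Pdk4 group over all 12 libraries, Benjamini-Hochberg adjustment over all genes and a threshold of 0.05. A second fit with 1 mean per set and group gave the values per set and their difference. The labels name no animals, so the p-values cover only how much these libraries varied, part of which may be technical. The glucocorticoid receptor and PPAR elements were searched in 1 spelling each, as a plain text match. No list was tested as a set. Alternatives used DESeq2 1.42.0, limma 3.58.1 (voom), other scalings and filters, diet as a term, parts of the libraries, a replicate block and Pdk4 as a number. Leaving out libraries 12 and 15 together was added after the data were seen. On simulated counts (13971 genes) the fit recovered 76% of genes changed 2-fold and 97% of those changed 4-fold, and 5.46% of calls were false. The simulated libraries were drawn as independent, with the groups fixed beforehand and the spread taken from these data. These shares therefore do not cover paired libraries or groups cut on a measured value.

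The rule named 14 fasting markers, up to 15 called genes a direction by size with no overlap in either set and a mean of at least 1 CPM, and up to 5 called members of each of 31 lists by smallest p. Of the genes so named, 2 are not reported here and are left out of the counts over markers, lists and named genes, but not of the fit. The members and lists were chosen with earlier results of these data known.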

Additional observations from a re-analysis of the deposited data

Results flagged for a closer look

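In 9 of 140 checks of a named gene within a Pdk4 group of 6 libraries, each centred on its set, 1 library lay apart by Dixon's ratio (its gap to the nearest library over the whole range, at the 95% level). Chance alone flags about 1 in 20 groups. Library 23 was the one apart in 5 of them, all in the low-Pdk4 group: it was low for Aqp7 (ratio 0.685, 1.56 CPM), Fbxo32 (0.726, 10.4 CPM) and Gpam (0.644, 43.0 CPM), and high for Pdk2 (0.715, 1118 CPM) and Slc2a4 (0.658, 723 CPM). In the high-Pdk4 group Fstl1 was high in library 32 (0.648, 17.1 CPM) and Pdk2 in library 12 (0.627, 696 CPM). In the low-Pdk4 group Nrep was low in library 35 (0.661, 19.0 CPM) and Psmc1 in library 15 (0.756, 149 CPM).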

How the results depend on the processing

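No gene among the 275 changed sign under an alternative in which it was tested, though each alternative reused libraries and Pdk4 values that made the calls. The called genes (275, with 166 higher and 109 lower) numbered 704 with DESeq2 (330 and 374), 180 with the diet term (103 higher), 10 without the set term (6 and 4), 80 in set 1 alone (49 and 31), 17 in set 2 alone (7 and 10), 0 in restriction libraries alone, 82 summed by number (48 and 34) and 1214 with Pdk4 as a number (585 and 629). Larger counts did not always hold the 275: DESeq2 called all 275 of them, and the fit with Pdk4 as a number called 148. With library size alone 81 were higher. Called genes numbered 70 without 8 and 28 (47 and 23), 45 without 9 and 29 (33 and 12) and 78 without 13 and 33 (42 and 36). Leaving out 1 library gave 117 to 400 (77 to 221 higher, 40 to 179 lower), 3 to 135 in set 1 (3 without control 9, 135 without control 23), 28 to 202 in set 2 (28 without control 29, 202 without restriction 35) and 0 to 3 for the difference between sets. Set 1 and set 2 contrasts (61 and 136) called 245 and 433 with DESeq2, 107 and 232 unfiltered, 231 and 2232 in controls alone, 5 and 36 in restriction libraries alone, 3 and 27 without 8 and 28, 1 and 9 without 9 and 29, and 16 and 16 without 13 and 33. Set 1 called 110 without 3 and 23 and 29 without 12 and 15, and set 2 called 75 without 12 and 32. The difference between sets (0) called 44 with DESeq2, 1 with limma-voom, 4 unfiltered, 475 in controls alone, 11 in restriction libraries alone, 4 without 3 and 23, 1 without 9 and 29 and 3 without 13 and 33. Within a set, 1 diet alone sets 2 libraries against 1, so those counts assume that the lone library varies like the others. The cause of these changes was not tested.

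Among genes that did not pass, signs turned for Trim63, Slc2a4 and Irs2. Trim63 stood at -0.0186 in set 1 alone and -0.0404 in restriction libraries alone. Slc2a4 stood at -0.0706 in set 2 alone and -0.0458 in controls alone. With Pdk4 as a number its value was a slope, -0.0325 per log2 unit of Pdk4. Irs2 stood at -1.06 in restriction libraries alone, -0.15 without 3 and 23, -0.34 without 9 and 29, and -0.0618 to 0.68 leaving out 1 library. Same-numbered libraries of the 2 sets deviated together with correlations from 0.0791 to 0.175. The main fit took all 12 libraries as independent because the labels pair none of them, and these correlations do not settle the matter. Of the 6 libraries of each set, 5 correlated best with their own number in the other set (not 13 and 33). The deviations were taken from the mean of each set and diet, so the Pdk4 group difference stayed in them. Same-numbered libraries share their Pdk4 group, so these matches cannot tell whether the numbers pair them. Whether a number stands for 1 animal was not tested. With the replicate block on number (limma-voom, estimated correlation -0.0214) 376 genes were called, 203 higher and 173 lower, and 1 for the difference between sets. The depth of 22829692 counts or more limits genes of few reads, such as Adamts8 in set 1.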
